A study of Drosophila melanogaster with 4 samples.

Results

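The broad autosomal H3K27me2 domains are the regions typed as enriched in the authors' combined list that lie on arm 2L, 2R, 3L or 3R and span at least 10 kb. There were 939 of them, among 12281 enriched regions on these arms and 16862 on all sequences of that list. They come from chromatin immunoprecipitation followed by sequencing (ChIP-seq) with antibody Ab24684, raised against histone H3 dimethylated at lysine 27. The chromatin was that of nuclei from 3rd instar larvae of the strain Oregon-R (Oregon-R-modENCODE), wild type in genotype and without any treatment. The groups were ChIP (n = 2) and input (n = 2), and each input served the ChIP sample of the same number. No line, transgene or allele separates the groups, so the values below describe places along the genome and the spread between the ChIP replicates, not an effect of a condition. The labels do not say whether the replicates were separate populations of larvae, so their spread may be technical. An enriched region is called a cluster below, and one of at least 10 kb a broad domain. Coordinates are those of FlyBase release 5, genes were not placed on them here, and read depth is unknown.

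Methylation of H3 lysine 27 is laid down by Polycomb repressive complex PRC2, whose catalytic subunit in Drosophila is Enhancer of zeste, E(z). The trimethylated form is concentrated over genes that Polycomb proteins silence, many of them developmental regulators. The dimethylated form is the more widespread one in flies. It covers long stretches of silent and intergenic chromatin, and it is low where the trimethylated form has taken its place.

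The domains were chosen by their arm and their length in the combined list, so their number, length, spacing and score in that list are given as a description with no test. The combined list was also made from both replicates, so their coverage of the domains is no independent support for them. The domains spanned 15.8 Mb, which was 16.4% of the 96.6 Mb of autosome arms. They made up 7.65% of the clusters on these arms and 30.4% of the bases in clusters. Their median length was 13.9 kb, with quartiles at 11.6 and 19.1 kb, and the longest measured 105.4 kb. Most were only moderately long. A total of 538 measured 10 to 15 kb, 207 reached 20 kb, 67 reached 30 kb and 8 reached 50 kb.

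The minimum of 10 kb cuts through a continuous range of lengths. The 3 shortest domains measured 10003 bp (2R 4943502 to 4953504), 10013 bp (3R 10638914 to 10648926) and 10014 bp (2L 20242827 to 20252840), with scores of 0.81, 0.85 and 0.76. The 3 longest clusters under the minimum measured 9999 bp (3L 6818571 to 6828569), 9973 bp (3L 5632564 to 5642536) and 9960 bp (2L 12122062 to 12132021), with scores of 0.53, 0.89 and 0.64.

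Single replicates held fewer clusters of this length. By the same rule, ChIP replicate 1 had 498 broad clusters over 7.43 Mb and ChIP replicate 2 had 361 over 4.99 Mb. That was 7.69% and 5.16% of the autosome arms, with median lengths of 13.0 and 12.1 kb. The combined list thus had more than either replicate alone.

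The right arm of each autosome carried more broad domains than the left arm. There were 256 on 2R and 160 on 2L, and 318 on 3R and 205 on 3L. Per megabase of arm this came to 12.1 on 2R, 11.4 on 3R, 8.35 on 3L and 6.95 on 2L. Broad domains took up 21.3% of 2R, 19.8% of 3R, 13.4% of 3L and 11.0% of 2L. The order 2R, 3R, 3L, 2L also held for the share of arm in broad clusters in replicate 1, with 11.7%, 9.17%, 6.08% and 3.87%. In replicate 2 it was 8.05%, 5.62%, 3.74% and 3.46%, with 3L and 2L close together. In the combined list domains on the right arms were also somewhat longer. Their medians were 14.1 kb on 2R and 14.8 kb on 3R, against 13.1 kb on 2L and 13.3 kb on 3L. Broad clusters of replicate 1 did not show this, with 13.01 kb on 2R and 12.88 kb on 3R, against 13.34 kb on 2L and 12.92 kb on 3L. In replicate 2 the medians were 12.40 kb on 2R, 12.44 kb on 3R, 11.69 kb on 2L and 12.17 kb on 3L.

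Along the arms the broad domains were densest toward the telomere. Each arm was cut into 10 equal segments, numbered from its telomere-side end. Summed over the 4 arms, segment 1 held 164 domains, segment 2 held 127 and segment 3 held 113. Segments 4 to 9 held 69 to 95 each, and segment 10, at the centromere-side end, held 50. Replicate 1 gave 104 broad clusters in segment 1 against 31 in segment 10, and replicate 2 gave 87 against 25. The lowest count of replicate 2 was 19, in segment 6. In both replicates segments 1 and 2 were the richest. The telomere-side 5 segments held 64.4% of the domains of 2L, 58.2% of those of 2R, 66.3% of those of 3L and 64.5% of those of 3R.

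Clusters of all lengths also covered less of segment 10 than of segment 1, by a smaller ratio than the broad ones did. In the mean of the 4 arms, clusters of any length covered 59.5% of segment 1 and 43.3% of segment 10 in the combined list. Broad domains covered 29.4% and 8.99% of the same segments. In replicate 1 all clusters went from 52.5% to 33.3% and broad ones from 16.2% to 5.14%. In replicate 2 they went from 44.5% to 36.2% and from 12.8% to 3.94%. The fall was not steady. In replicate 2 all clusters covered 35.8% of segment 6 and broad ones 2.48%, both less than in segment 10. The broad share of replicate 1 was also lowest in segment 6, at 4.73%. In the combined list broad domains held 49.3% of the bases in clusters near the telomere and 20.8% near the centromere. Single arms departed from this course. On 3R the 2 segments nearest the telomere held 111 of 318 domains (34.9%), with 36.9% and 41.5% of the sequence in broad domains. On 2R the share was 29.5% in segment 8 and fell to 4.01% in segment 10. On 3L it was lowest in segment 7 (6.31%) and stood at 18.5% in segment 10, and on 2L it was lowest in segment 8 (1.13%).

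**Figure D1:**
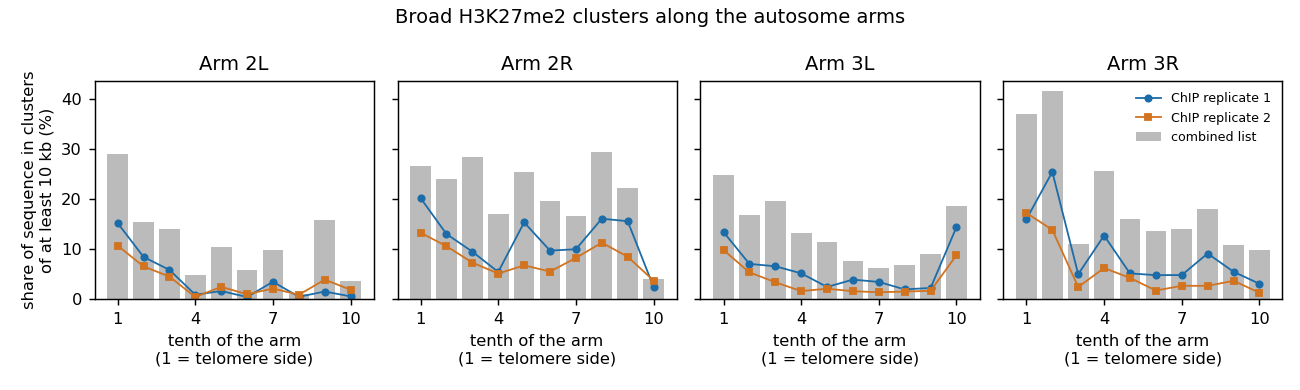
Share of sequence in clusters of at least 10 kb (%) in 10 equal segments of each autosome arm, numbered from the telomere side, as bars for the combined list and lines for each ChIP replicate. Bars are highest in the segments nearest the telomere on 2L, 3L and 3R, where segment 2 of 3R reaches 41.5%, while 2R is high along most of its length and falls to 4.01% in segment 10.

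Broad domains lay in clumps separated by long stretches with none. In full 1 Mb bins of the arms their number ran from 0 to 23, with a mean of 9.69 and a median of 9. The richest 23 of 95 bins held 400 domains (43.4% of those in full bins) and the poorest 23 held 58 (6.30%). The variance of the count was 3.42 times its mean. In the single replicates that ratio was 3.98 and 2.83. It fell to 1.37 when clusters less than 1 kb apart were joined before the minimum of 10 kb was applied, which turned 939 domains into 1510.

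The gap from a broad domain to the next one on the same arm had a median of 26.9 kb and quartiles of 6.45 and 89.6 kb. In the list of replicate 1 the median gap between broad clusters was 47.7 kb, and in that of replicate 2 it was 85.7 kb. Of 935 gaps in the combined list, 418 (44.7%) were at most 20 kb and 127 were at most 1 kb. Another 25 measured at least 500 kb. Median gaps were 21.2 kb on 2R, 22.2 kb on 3R, 29.2 kb on 3L and 49.3 kb on 2L.

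Most broad domains had a broad neighbour close by. A further broad domain lay within 20 kb of 620 of the 939 (66.0%). Among all 12281 autosome-arm clusters, 33.5% had a broad domain that near, and the share was 42.0% for clusters of 4 to 10 kb and 26.7% for shorter ones. The share among the domains was 72.7% on 2R, 68.6% on 3R, 66.3% on 3L and 50.0% on 2L. By the same rule it was 54.4% in replicate 1 and 41.6% in replicate 2.

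**Figure D2:**
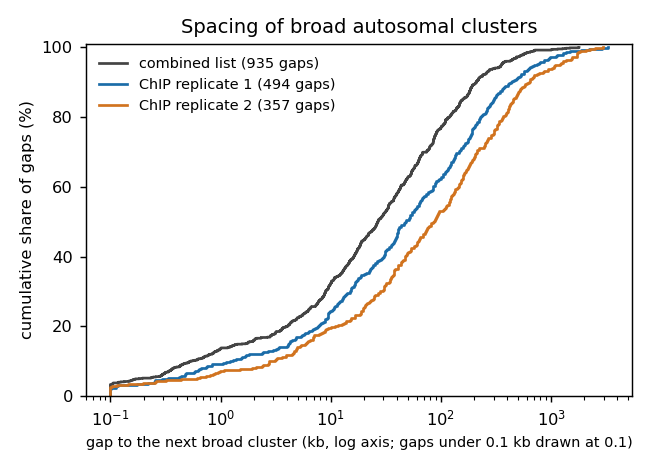
Cumulative share of gaps (%) between neighbouring broad clusters of an autosome arm against the gap in kb on a log axis, for the combined list and each ChIP replicate. The median gap is 26.9 kb in the combined list, 47.7 kb in replicate 1 and 85.7 kb in replicate 2.

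Runs of domains with gaps of at most 20 kb, called chains here, numbered 202, and 319 domains stood alone. There were 100 chains of 2 domains, 52 of 3, 22 of 4 and 28 of 5 or more. The 28 long chains held 176 domains, and 13 of them lay on 3R, 9 on 2R, 5 on 3L and 1 on 2L.

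The chain with the widest span lay on 3L from 22184815 to 22537661. It joined 11 domains over 352.8 kb, and clusters of any length covered 85.8% of it in replicate 1 and 78.7% in replicate 2. A chain on 3R from 22429541 to 22686451 also joined 11 domains, over 256.9 kb, with 86.8% and 81.2% covered. Broad domains alone filled 79.2% and 84.2% of these spans, so the choice of the chains largely sets their coverage. The next chains by number of domains were 3R 26377975 to 26566763 with 8 domains (74.7% and 72.9% covered) and 2R 9539772 to 9698771 with 8 (79.8% and 74.5%). A chain of 7 on 3R from 23126858 to 23347356 spanned 220.5 kb (83.0% and 82.1%). Domains in chains had a median length of 14.6 kb and a median score of 0.80, and those standing alone 13.1 kb and 0.75.

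Long stretches without a broad domain still carried shorter clusters. The longest lay on 3L from 17345364 to 19136009, 1791 kb, with 274 clusters of at most 9.87 kb that covered 41.0% of it. It was followed by 2L 21001301 to 22482672 (1481 kb, 29.7% covered), 3L 14903619 to 16261231 (1358 kb, 42.4%), 2R 424172 to 1698081 (1274 kb, 36.5%) and 2L 15640581 to 16779758 (1139 kb, 36.2%). Replicate 1 covered 20.0% to 29.1% of these 5 stretches and replicate 2 covered 19.3% to 34.5%. A pair of isolated domains on 2L, at 16779759 to 16791392 and 17500870 to 17515258, were each other's nearest broad neighbour at 709.5 kb. The most isolated domain was the first of 2R, at 413723 to 424171, 1274 kb from the next.

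Longer gaps between neighbours held shorter clusters, and the shortest did not. Gaps of 5 to 20 kb between broad domains were covered to 61.4% by shorter clusters in the combined list, to 51.3% by clusters of replicate 1 and to 45.5% by clusters of replicate 2. Gaps of more than 100 kb were covered to 43.0%, 32.8% and 28.3%. Gaps of 1 to 5 kb were covered to 43.5%, 32.6% and 32.6%, and 42 of these 83 held no cluster of the combined list. Gaps of up to 1 kb held none, and clusters of replicate 1 and replicate 2 covered 2.96% and 22.2% of their bases. Of the 127 gaps of at most 1 kb, 31 measured at most 100 bp and 2 measured 0 bp, so that the domains on both sides abutted. A single cluster of replicate 1 ran across 4 of the 127, and a single cluster of replicate 2 ran across 23. The rule by which the authors kept such neighbours apart is not known here.

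The enrichment of the domains was moderate in height. The authors' score, read here as a log2 value, had a median of 0.79 over the 939 domains, with quartiles of 0.69 and 0.90 and a range of 0.42 to 1.45. The nuclei came from larvae with many cell types, so a mark in few cells and a weak mark in all cells cannot be told apart. Of the domains, 930 (99.0%) scored at or above the median of the whole combined list (0.50). Among all clusters of these arms 44.0% did so. Score and length were set in the same list from the same reads, so nothing is read from the count. Clusters of 4 to 10 kb had a median score of 0.64 and shorter ones 0.39. The spread was narrower among broad domains (SD 0.16) than among clusters of 4 to 10 kb (0.20) or under 4 kb (0.21). No broad domain reached the highest scores of those classes, 1.77 and 3.40. A larger class can reach further, and those classes held 3013 and 8329 clusters. Neither spread nor maximum was adjusted for class size or length.

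Within the broad class, score and length were only loosely related. The Spearman coefficient across the 939 domains was 0.264, over points that share the same libraries. Median scores were 0.76 at 10 to 15 kb, 0.77 at 15 to 20 kb, 0.86 at 20 to 30 kb, 0.89 at 30 to 50 kb and 0.85 at 50 kb or more. By arm the median was 0.82 on 2R, 0.79 on 3L, 0.78 on 3R and 0.73 on 2L.

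The 5 highest-scored domains were of ordinary length and were marked in both replicates. The top one, 3L 23288559 to 23306890, measured 18.3 kb and scored 1.45. The mean score of the clusters inside it, weighted by length, was 1.80 in replicate 1 and 1.10 in replicate 2. Next came 3L 1758732 to 1772162 (13.4 kb, 1.41), 2L 4551830 to 4566396 (14.6 kb, 1.37), 2L 22758213 to 22768358 (10.1 kb, 1.36) and 2L 5028467 to 5040508 (12.0 kb, 1.34). Replicate 1 covered 95.9% to 100% of these 5 domains and replicate 2 covered 83.5% to 98.0%. The 3 lowest scores were 0.42 at 3R 18953990 to 18964774, 0.44 at 2R 10884241 to 10897296 and 0.45 at 2L 11287611 to 11300260. Their coverage was 83.2%, 56.5% and 73.8% in replicate 1 and 0%, 71.2% and 37.7% in replicate 2.

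Over all domains the weighted score inside was 0.95 (median) in replicate 1 and 0.70 in replicate 2, and it was higher in replicate 1 in 884 of 937 domains with clusters in both. The replicates ranked the domains in a similar but not equal order, with a Spearman coefficient of 0.596 across these 937 domains, which share libraries and are not replicates.

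Both replicates covered most of the bases of the broad domains. Clusters of replicate 1 took in 92.2% and clusters of replicate 2 took in 84.5%, a mean of 88.3% ± 5.47 (SD, n = 2). Both replicates together marked 79.2% of the bases, and 2.54% lay in a cluster of neither. For clusters of 4 to 10 kb the mean was 80.2% ± 7.83, and for shorter ones 58.8% ± 11.6 (SD, n = 2 each). In each replicate the order of the classes was the same, with 92.2%, 85.7% and 67.1% in replicate 1 and 84.5%, 74.7% and 50.6% in replicate 2. The differences between classes were not tested, since length in the combined list set the classes.

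The coverage of a single domain ran from 46.3% to 100% in replicate 1, with a median of 94.4%, and from 0% to 100% in replicate 2, with a median of 86.8%. Replicate 1 covered at least 90% of 626 domains (66.7%), against 47.5% of all autosome-arm clusters. For replicate 2 the number was 354 (37.7%), against 27.1%. Both replicates did so for 265 domains (28.2%), against 10.9%. Under 50% of the domain was covered for 1 domain (0.106%) in replicate 1, where 24.0% of all clusters were, and for 27 (2.88%) in replicate 2, where 37.8% were. No domain lacked a cluster of replicate 1, while 21.6% of all clusters did. Replicate 2 had none in 2 domains (0.213%), against 30.9%.

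Replicate 1 had the higher share in 676 domains (72.0%), against 57.3% of all autosome-arm clusters. The difference between the replicates had a median of 6.05 percentage points, with quartiles of -0.85 and 15.4. It was over 30 points in 75 domains (7.99%), against 41.1% of all autosome-arm clusters, and replicate 1 was higher in 74 of these. They had a median length of 12.2 kb and a median score of 0.69, both lower than over all domains. Of the 75, 26 were among the 318 domains of 3R and 21 among the 205 of 3L. Another 15 were among the 256 of 2R and 13 among the 160 of 2L. The next broad neighbour was another such domain for 20 of the 75, a count not set beside other domains.

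The domains on which the replicates parted most lay close together at the end of 2R. At 2R 20706451 to 20722282, replicate 1 covered 95.2% with a single cluster and replicate 2 had no cluster. At 2R 20734738 to 20744995, in the same chain, the shares were 99.1% and 12.9%. The remaining domain that replicate 2 did not touch, 3R 18953990 to 18964774, also had the lowest score of all. Apart from these, the domains least covered in the mean of the replicates were 3R 23978891 to 23998900 (68.1% and 22.9%), 3L 6424617 to 6436507 (59.7% and 36.3%) and 3L 4026490 to 4036869 (46.3% and 62.9%). In these 3 domains no cluster of either replicate exceeded 6.53 kb inside the domain.

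**Figure D3:**
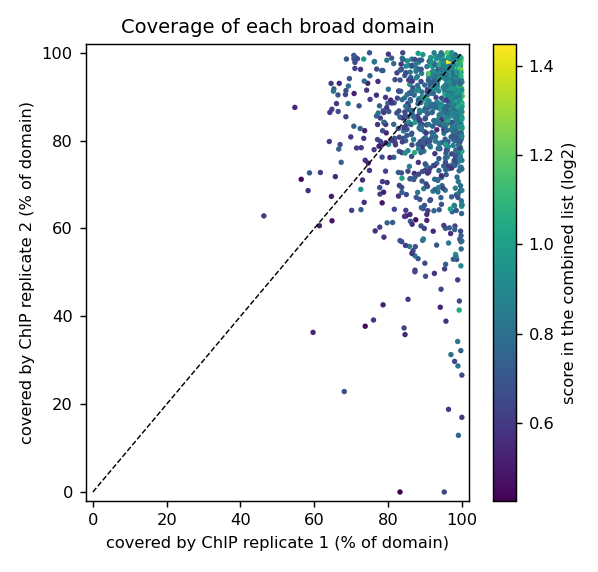
Each point is one of the 939 broad domains, with the share of its bases (%) in clusters of ChIP replicate 1 on the x axis and of ChIP replicate 2 on the y axis, coloured by its log2 score in the combined list, and the dashed line marks equal shares. Most points (676) lie below the line, toward the upper right, and 2 points lie at 0% in replicate 2, one of them the domain with the lowest score (0.42).

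Most broad domains were not one piece in either replicate. Replicate 1 split 654 of them (69.6%) in 2 or more clusters, against 13.6% of all autosome-arm clusters, and replicate 2 split 788 (83.9%), against 18.0%. A longer region can hold more pieces, and these shares were not adjusted for length. Only 74 domains held a single cluster in both replicates. A further 210 held a single cluster in replicate 1 alone, 75 in replicate 2 alone and 578 in neither. The other 2 are those without a cluster in replicate 2. A single cluster need not fill its domain, and at 2R 20734738 to 20744995 that of replicate 2 covered 12.9%. The median number of pieces was 2 in replicate 1 and 3 in replicate 2, and the largest numbers were 9 and 14.

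**Figure D4:**
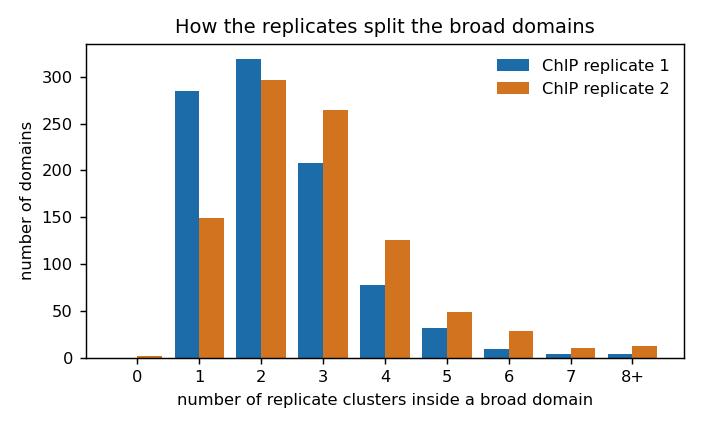
Number of broad domains (y axis) by the number of clusters of ChIP replicate 1 or 2 found inside them (x axis). Replicate 1 most often has 2 pieces (319 domains) and replicate 2 most often 2 or 3 (297 and 264), while 285 and 149 domains hold a single cluster.

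The breaks inside domains were short. Replicate 1 had 1195, with a median length of 337 bp, of which 978 (81.8%) were under 1 kb. Replicate 2 had 1719, with a median of 490 bp, of which 1244 (72.4%) were under 1 kb. They took up 4.13% and 8.40% of the bases of the domains. Breaks of one replicate were mostly bridged by the other, though their bases were covered there less often than domain bases at large. Breaks were counted only inside domains of a list made from both replicates, so the bridging is partly built in. Of those of at least 1 bp, clusters of replicate 2 covered 708 of 1190 breaks of replicate 1 in full (59.5%), and clusters of replicate 1 covered 1255 of 1715 breaks of replicate 2 (73.2%). Of the bases in breaks of replicate 1, 27.1% were also outside the clusters of replicate 2, where 15.5% of all bases of the domains were. Of the bases in breaks of replicate 2, 12.8% were outside the clusters of replicate 1, against 7.80% of all bases of the domains. The shares of all bases, 15.5% and 7.80%, include 6.96% and 3.67% that were lost at the domain edges. Breaks alone took up 8.40% in replicate 2 and 4.13% in replicate 1.

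Longer domains were made of more pieces, with more domain length to each piece. That length includes uncovered bases, and a piece cannot exceed its domain, so the length classes partly fix these values. In replicate 1 there was a piece for every 6.30 kb of domain at 10 to 15 kb of length, for every 8.83 kb at 20 to 30 kb and for every 13.1 kb at 50 kb or more. In replicate 2 the values were 5.30, 6.99 and 7.09 kb. At 30 to 50 kb of length they were 9.62 kb in replicate 1 and 7.16 kb in replicate 2, so replicate 2 hardly changed from 20 kb upward. The most divided domains were 3R 23235564 to 23291062 (8 pieces in replicate 1, 13 in replicate 2), 3L 10892470 to 10947059 (5 and 14) and 3L 2672489 to 2718197 (8 and 10). Their lengths were 55.5, 54.6 and 45.7 kb, and the largest piece of replicate 2 inside them was 7.89, 6.37 and 9.36 kb.

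A domain little over 10 kb can hold a piece of 10 kb only if it is almost unbroken, so length partly fixes the following counts. Both replicates did inside 193 domains (median length 21.4 kb, median score 0.95) and replicate 1 alone inside 255 (14.8 kb, 0.82). Replicate 2 alone did inside 91 (14.5 kb, 0.75). Inside the remaining 400, 42.6% of all, neither replicate had an unbroken piece of that length, and these were the shorter and lower-scored ones (11.9 kb, 0.70). The longest unbroken stretch marked in both replicates reached 10 kb in 165 domains. Over all domains this longest stretch had a median of 6.12 kb and a maximum of 41.0 kb. Domains in the highest of 4 equal score classes, from 0.90 upward, held a single cluster in replicate 1 in 52.8% of cases and in replicate 2 in 28.5%. In the lowest class, up to 0.69, these shares were 11.5% and 8.94%.

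The 3 longest domains of each arm show how a long mark is put together. On 2L they were 4228311 to 4286431 (58.1 kb), 922252 to 977545 (55.3 kb) and 877089 to 921793 (44.7 kb), and the last pair lay 458 bp apart. Replicate 1 built each of the 3 from 3 clusters and replicate 2 from 5, 3 and 3, with coverage of 96.8% to 99.2% and 88.9% to 93.6%. On 2R, 4685448 to 4742800 (57.4 kb) consisted of 2 clusters in replicate 1, the larger of 42.0 kb, and 5 in replicate 2. The domain 2R 19114821 to 19165701 (50.9 kb) was in 5 and 11 pieces, with 94.5% and 71.6% covered, and 2R 1698082 to 1747802 (49.7 kb) in 4 and 5, with 97.7% and 98.6%.

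On 3L the longest domain of all, 22295682 to 22401106, was in 9 clusters in replicate 1 and 8 in replicate 2. A single piece of 53.0 kb in replicate 1 and of 57.7 kb in replicate 2 made up the larger part of it. The others of that arm, 3L 10892470 to 10947059 and 3L 2672489 to 2718197, are the divided ones given above, and replicate 1 and replicate 2 covered 92.9% and 84.1% of the former and 86.3% and 81.4% of the latter. On 3R, 4268086 to 4327057 (59.0 kb) had 3 pieces in replicate 1 and 11 in replicate 2, with 92.4% and 84.6% covered. The domain 3R 23619833 to 23667404 (47.6 kb) had 5 and 9 pieces, with 96.4% and 90.4%, and 3R 23235564 to 23291062 had the lowest coverage of the 12 in both replicates, 86.1% and 71.3%.

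Cluster ends of replicate 1 lay close to the edges of the domains, and those of replicate 2 less so. The edges come from a list made from both replicates, so this closeness is partly built in. It was not measured for other clusters. The outermost cluster of replicate 1 ended less than 500 bp inside the edge, or beyond it, at 1519 of 1878 edges (80.9%), with a median distance of 76.5 bp. For replicate 2 this was so at 1294 of 1874 edges (69.1%), with a median of 206.5 bp. A cluster of replicate 1 ran past the edge at 370 edges and by at least 1 kb at 24. A cluster of replicate 2 did so at 450 and 128. In the outermost 500 bp of the domains, 66.7% of bases were covered in replicate 1 and 50.5% in replicate 2, and between 1.5 and 2 kb inside the values were 94.5% and 86.1%.

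Outside the edges coverage dropped and came back within a short distance. An edge is where a cluster of the combined list ends, so the drop next to it is partly built in. In the first 500 bp outside, 15.6% of bases lay in clusters of replicate 1 and 20.2% in clusters of replicate 2. From 1.5 to 2 kb outside they were 56.4% and 50.9%, and from 29.5 to 30 kb outside 56.1% and 49.2%. These values count other broad domains as well. When all broad domains were left out, the sequence within 10 kb of one was covered to 55.7% in the combined list, 46.1% in replicate 1 and 40.1% in replicate 2. Over all sequence of the arms outside broad domains the values were 44.8%, 35.0% and 30.3%. In each of the 3 lists, clusters thus took up more of the sequence next to broad domains than of the arms outside them. The replicates' values are not of shorter clusters alone, since 5 broad clusters of replicate 1 and 35 of replicate 2 touched no broad domain of the combined list.

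**Figure D5:**
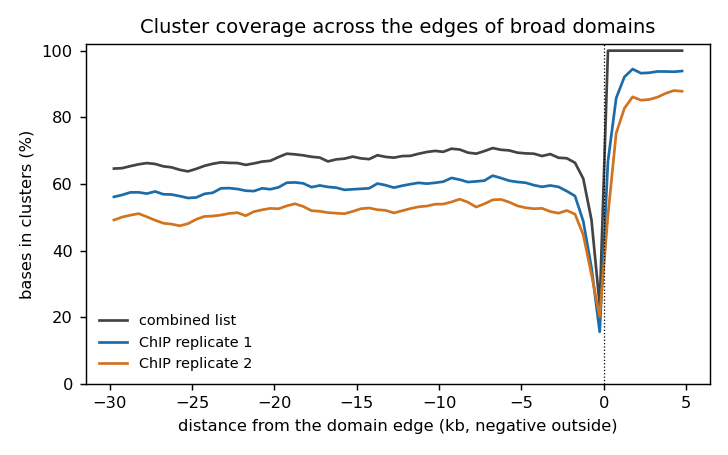
Share of bases in clusters (%) against the distance in kb from the edges of the 939 broad domains, negative outside, for the combined list and each ChIP replicate, in steps of 0.5 kb. Replicate 1 falls from 94.5% inside to 15.6% next to the edge and is back at 56.4% within 2 kb, and replicate 2 runs from 86.1% to 20.2% and 50.9%.

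A choice of domains in one replicate leaves the other replicate free of that choice. The 498 broad clusters of replicate 1 were covered to 86.9% by clusters of replicate 2. The 361 broad clusters of replicate 2 were covered to 92.7% by clusters of replicate 1. Of the whole autosome arms, clusters of replicate 2 covered 39.2% and those of replicate 1 covered 44.4%. The mean of both directions was 89.8% ± 4.11 (SD of the 2 directions, which share both libraries). Clusters of 4 to 10 kb chosen in the same way were covered to 79.9% and 86.5%, a mean of 83.2% ± 4.62, and shorter ones to 61.0% and 75.9%, a mean of 68.4% ± 10.5. The classes had the same order in both directions, and this order was not tested.

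Nearly all of these broad clusters met a cluster of the other replicate, and fewer met a broad one. Replicate 2 touched all but 2 of the 498 and covered 15 of them (3.01%) to under 50%. For clusters of 4 to 10 kb of replicate 1 that share was 11.5%, and for shorter ones 36.7%. Replicate 1 touched each of the 361 and covered 5 of them (1.39%) to under 50%, against 7.42% and 21.9% in the shorter classes of replicate 2. A cluster of at least 10 kb was the counterpart for 220 of the 498 (44.2%) and for 221 of the 361 (61.2%). For clusters of 4 to 10 kb these shares were 9.61% and 17.9%, and for shorter ones 2.45% and 5.86%. A longer cluster can meet more, and the shares were not adjusted for length. A single cluster lay opposite 124 (24.9%) of the 498 and 147 (40.7%) of the 361, and the others met 2 or more, apart from the 2 that met none. For clusters of 4 to 10 kb a single cluster lay opposite 60.1% and 66.8%, and for shorter ones 64.4% and 78.8%. Median scores in the replicate not used for the choice were 0.74 in replicate 2 and 1.04 in replicate 1. For clusters of 4 to 10 kb they were 0.68 and 0.91, and for shorter ones 0.60 and 0.71.

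The broad clusters of replicate 1 with least coverage in replicate 2 were 2L 6975725 to 6985732 and 2R 20707207 to 20722321, both at 0%. They were followed by 2R 20732837 to 20744899 (11.0%), 3R 7181646 to 7195896 (13.3%) and 2R 11709224 to 11720305 (17.0%). In the opposite direction the lowest shares were higher, from 38.4% at 2R 222260 to 233812 to 49.8% at 3R 21237549 to 21252593 over the lowest 5. Nearly all broad clusters of replicate 1 (493 of 498) and most of those of replicate 2 (326 of 361) touched a broad domain of the combined list.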

How the data were processed

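Per the submitters' processing notes, the authors used the aligner Bowtie, version 0.12.7. The authors deposited regions typed as enriched or depleted for each ChIP replicate and for the replicate set, in FlyBase release 5 coordinates, per the file headers. Which program called the regions, with which thresholds and scaling against input, and how the lists were combined, is not stated in these sources. The score the authors deposited with every region was read as log2: pairs of distinct scores lay exactly 1 apart within 1e-09 (246 in the combined list, 398 in replicate 1, 78 in replicate 2), and 0 pairs differed by the natural or by the decimal logarithm of 2. The files hold no counts, so depth and counting error are unknown. Input samples have no list used here.

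Depleted regions were left out; none touched a broad domain. Shares are of full arm length, gaps and repeats included. Interval operations were tested on simulated data against base by base counting. Python 3.11.15, numpy 2.4.6, pandas 2.3.3 and matplotlib 3.10.9 were used. The domains, classes and alternatives were chosen with earlier results of these data known. Named regions were, by rule, the 3 longest per arm, the 5 highest-scored and 3 lowest-scored, the 5 least covered, the 3 with the largest replicate difference, the 3 with most pieces, the 5 largest chains, the 5 longest stretches without a domain and the 3 on each side of the minimum. The most isolated domains and the least covered clusters of single replicates were added after their values were seen. Genes, gene lists and sequences were not used, since the annotation at hand is of another build.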

Additional observations from a re-analysis of the deposited data

How the results depend on the processing

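Of 64 alternative values, 39 stayed within the SD between replicates (or, for the number of domains, within 1.5 times) and 25 moved. That SD rests on 2 values, and the single-replicate alternatives are judged by a spread they set themselves. For the median gap the SD was 26.92 kb, about the size of the gap itself (26.86 kb). The count of 39 is thus no measure of stability. With a minimum of 8 kb there were 1422 domains over 20.9% of the arms. With a minimum of 20 kb there were 207 over 6.28%, with a median gap of 149 kb, 36.7% with a broad neighbour within 20 kb, a variance to mean ratio of 2.23 and 3.5 pieces. Joining clusters closer than 1 kb gave 1510 domains over 36.0%, with 75.2% near another, a ratio of 1.37, 78.5% of bases covered and 4 pieces. A higher minimum or joining changes the number and spacing by construction. A neighbour was found for 52.4% within 10 kb and 83.5% within 50 kb, and bins of 2 Mb gave a ratio of 4.36. In the lists of single replicates the number ran from 361 to 498, the share of the arms from 5.16% to 7.69%, the median gap from 47.7 to 85.7 kb, the share with a near neighbour from 41.6% to 54.4%, the ratio from 2.83 to 3.98 and the median score from 0.78 to 1.08. The share of bases covered ran from 84.5% to 92.2% and the pieces from 2 to 3 with either replicate left out. The cause of the larger number in the combined list was not tested. Leaving out scores under the list median or the end 1 Mb of the arms moved none of the 8 values computed. The score limit kept 930 of the 939 domains, so it could hardly move them. Leaving out the ends kept 871. Coverage between replicates was 86.3% to 92.8% over its 3 alternatives. No paired analysis was possible because a number in common ties a ChIP sample to its input, for which no region list was analysed, and groups were not tested against each other. What read depth limits could not be measured, as the files hold no counts.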

Other observations

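Broad clusters also lay on X, where the combined list had 186 of at least 10 kb. Their median score was 0.86, against 0.79 on the autosome arms, and their bases were covered to 90.9% in replicate 1 and 80.0% in replicate 2, against 92.2% and 84.5%. These differences were not tested.

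When clusters less than 1 kb apart were joined, 772 of the 939 domains were joined to at least one other cluster. All 939 then lay in 709 joined domains, of which 153 held 2 or more of the original ones, and 801 further domains were built from clusters under 10 kb alone.

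Scores of neighbouring broad domains were compared by the gap between them, with no test. The median absolute difference between a domain and the next was 0.09 on the log2 scale for gaps of at most 1 kb (127 pairs). It was 0.113 for gaps of 1 to 5 kb (83 pairs) and 0.108 for gaps of 5 to 20 kb (208 pairs). For gaps of 20 to 100 kb (301 pairs) and for gaps over 100 kb (216 pairs) it was 0.13 each.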
